A study of Mus musculus with 21 samples.

Results

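Of the 2127 p53 peaks that the depositors listed as specific to Trp53 wild-type ID8 cells, 274 (12.9%, 95% exact binomial interval 11.5 to 14.4) overlapped a long terminal repeat (LTR) named MMERGLN_LTR. They were taken by name from the deposited repeat annotation: a peak was kept if it had an entry named MMERGLN_LTR and none named RLTR1B, and 0 peaks carried both names. Binding was mapped by CUT&RUN, in which an antibody on chromatin directs a nuclease to release the DNA beside it. ID8 is an immortalized line from the ovarian surface epithelium of C57BL/6 mice, here untreated and growing asynchronously. The p53 antibody was used on 2 Trp53+/+ samples (WT) and 2 Trp53-/- samples (KO), and each genotype is represented by 1 deposited peak list. The labels do not say whether the KO line is 1 clone. The lists hold positions without a score, so the measures below are places, lengths and counts, with no replicate check and unknown read depth. They hold no expression level against which the labelled cell type could be checked.

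p53 is a transcription factor that binds DNA as a tetramer, on a pair of short decamers called half-sites. LTRs flank the genes of a retrovirus on both sides and carry its promoter. In an endogenous retrovirus, an infection of the germ line that is now inherited, the 5′ LTR is the promoter of the provirus and the 3′ LTR is a copy of the same sequence. Recombination between the LTR pair often removes the interior and leaves a single, solitary LTR. MMERGLN_LTR is the LTR of GLN, a murine endogenous retrovirus related to the leukaemia viruses and grouped in the ERV1 family.

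The sequence of a bound element could be read at 1 of the 274 sites, because a RefSeq promoter window lies on it (GRCm38.p6, the assembly that mm10 represents). The window belongs to Gm34607, a predicted gene whose annotated start is at base 58 of the element and whose strand is opposite to it. The element is at chromosome 10, 22410948 to 22411381, on the plus strand, and the peak over it spans 22410958 to 22411245 (288 bp, annotated intergenic). The 300 bases of chr10:22410956-22411255 are printed in the 5′ to 3′ direction of the LTR and correspond to its bases 9 to 308, with a match to a pair of abutting p53 half-sites in capitals.
MMERGLN_LTR at Gm34607: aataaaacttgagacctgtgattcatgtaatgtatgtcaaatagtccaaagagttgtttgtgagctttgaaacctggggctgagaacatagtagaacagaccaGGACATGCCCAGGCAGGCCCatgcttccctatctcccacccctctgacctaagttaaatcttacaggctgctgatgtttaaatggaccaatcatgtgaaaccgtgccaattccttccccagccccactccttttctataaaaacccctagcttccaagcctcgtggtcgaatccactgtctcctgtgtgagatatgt

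The capitals mark bases 112 to 131 of the element. The decamer GGACATGCCC fits the p53 half-site consensus at every base. The abutting AGGCAGGCCC departs from it at 1 base, which lies in the central core of the half-site. Of 32851 RefSeq promoter windows of 300 bases, 8.36% held a decamer that fits the half-site consensus, and 29 (0.0883%) held a 20-mer of abutting half-sites with at most 1 mismatch. Among the 163 windows that touched a WT-specific peak, the shares were higher. Such a decamer was in 20.2% of them and such a 20-mer in 8 (4.91%, 2.14 to 9.44). Both consensus forms read the same on either strand. Downstream of the 20-mer on the LTR's own strand the window holds CCAAT at bases 198 and 217 and TATAAA at bases 247 to 252, letters of common promoter motifs. CCAAT was found on either strand in 37.4% of all windows and TATAAA in 13.6%. These matches are descriptions of letters and not measured binding sites. The next most alike RefSeq promoter window shared 6 of its 286 15-mers.

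A peak on another LTR allowed a comparison. The RLTR23 element under a WT-specific peak of 393 bp at chromosome 9 (116327059 to 116327451) carries the RefSeq promoter window of D730003K21Rik. Shown are 60 bases of each element in the 5′ to 3′ direction of its LTR, from chr10:22411039-22411098 (plus strand) and chr9:116327229-116327288 (minus strand), with the p53 20-mer in capitals.
MMERGLN_LTR at Gm34607: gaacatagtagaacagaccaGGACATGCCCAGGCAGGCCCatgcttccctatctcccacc
RLTR23 at D730003K21Rik: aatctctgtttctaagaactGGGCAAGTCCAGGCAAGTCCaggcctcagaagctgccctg

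The RLTR23 20-mer fits the consensus with 0 mismatches, as in 3 of the 32851 windows (0.00913%), and lies at bases 79 to 98 of its element. It is identical to the MMERGLN_LTR 20-mer at 15 of 20 bases. No RefSeq promoter window lay on an RLTR1B element under a WT-specific peak, so that element was not compared by sequence.

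Peaks on MMERGLN_LTR covered one part of the element in nearly every case. The place of the 20-mer, bases 112 to 131, was inside the peak in 271 of the 274 (98.9%, 95% exact binomial interval 96.8 to 99.8). Peaks were selected for overlap with this element and were mostly longer than it, so a high share was likely beforehand. Nearby bases outside the 20-mer were covered about as often, so the share does not set the 20-mer place apart. The position was read from 1 sequenced copy and carried over to the others by distance from the annotated 5′ end, so an insertion or deletion in a copy would shift it. Among the 257 peaks on an element of at least 400 bp, all covered bases 136 to 142, the stretch of highest coverage. Coverage was 95.7% at base 1, 99.2% at base 200, 87.5% at base 300 and 47.9% at base 400. Outside the element it was 45.9% at 200 bp upstream and 11.7% at base 500.

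Relative to the centre of the 20-mer place, peak midpoints had a median position of -13.75 bp (-20.5 to -6.5, negative values upstream), and 245 of 274 midpoints were within 100 bp of it. The interval of the median lay wholly upstream of the centre. For 98 peaks on RLTR23 the median was 3.5 bp (-8 to 13) from the 20-mer centre of that element, and 96 of the 98 covered its place. That place was also carried over from 1 sequenced copy, and RLTR23 elements ranged from 95 to 558 bp. Of the 98, 62 reached 400 bp, so the place is less certain there than on MMERGLN_LTR. These peaks were likewise selected for overlap with their element, so a high share was likely beforehand. Counted from the 5′ end of the element, median midpoints were at 107.25 bp for MMERGLN_LTR, 91.5 bp for RLTR23 and 101 bp (98 to 105) for RLTR1B. For RLTR1F_Mm the median was -51.75 bp, upstream of the element. No 20-mer was read for RLTR1B, so midpoints near this depth were not limited to elements with a 20-mer read. The midpoint is not a measured summit.

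**Figure D1:**
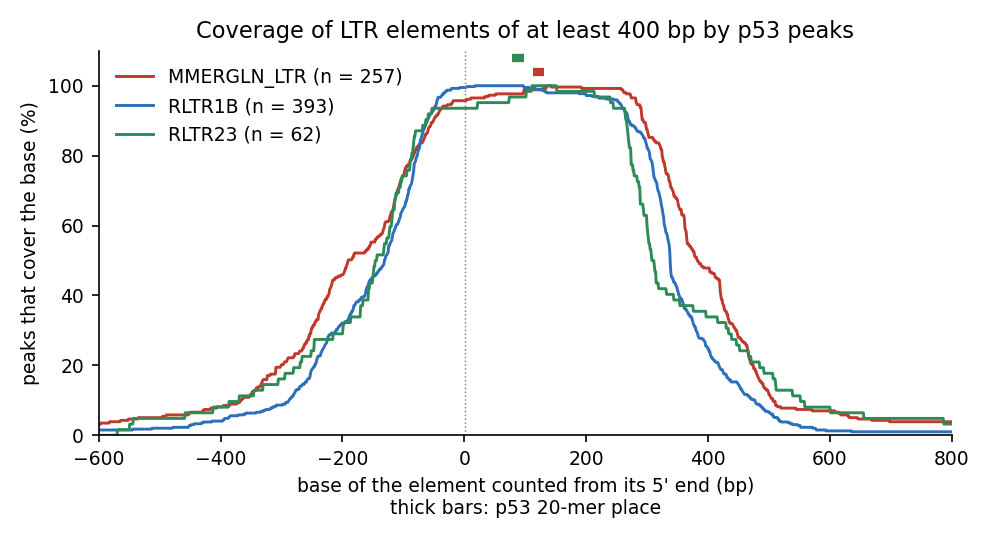
Percent of WT-specific p53 peaks (vertical axis) that cover each base of the LTR counted from its 5′ end in bp (horizontal axis), for elements of at least 400 bp. Lines are MMERGLN_LTR (257 peaks), RLTR1B (393) and RLTR23 (62), thick bars mark the p53 20-mer in the 1 MMERGLN_LTR and 1 RLTR23 copy that were sequenced, and the MMERGLN_LTR line reaches 100% at bases 136 to 142.

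The MMERGLN_LTR peaks were longer than the element and reached beyond it mostly on the upstream side. Their median length was 573.5 bp (95% interval from order statistics 540 to 603), with a range of 191 to 2568 bp. RLTR1B peaks had a median of 472 bp (452 to 499), RLTR23 peaks 461.5 bp (415 to 546) and all WT-specific peaks 454 bp (444 to 465). The MMERGLN_LTR interval lay above those of RLTR1B and of all WT-specific peaks, and its lower end overlapped the RLTR23 interval. The 36 peaks on RLTR1F_Mm were longer, with a median of 974.5 bp (938 to 1031). The peak began upstream of the element in 263 of 274 (96.0%) and ended downstream of it in 91 (33.2%). Counted from the start of the element, the upstream edge had a median of -184.5 bp (-214 to -143) and the downstream edge of 378.5 bp (364 to 411).

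The elements themselves were uniform. Their median length was 430 bp, 109 of 274 were exactly that long, and 237 were within 10 bp of it. A length of at least 400 bp was reached by 257. The shortest element had 247 bp and the longest 502 bp. The whole element lay inside the peak in 94 cases (34.3%, 28.7 to 40.3), against 36 of 417 RLTR1B peaks (8.63%, 6.12 to 11.8), whose elements had a median of 509 bp, and 37 of 98 RLTR23 peaks (37.8%, 28.2 to 48.1). In 248 of the 274 peaks this element was the only repeat entry of the deposited annotation, which may leave out repeats that a peak reaches. A second MMERGLN_LTR was listed for 2 peaks. The plus strand held 124 elements (45.3%, 39.3 to 51.4).

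The longest peaks extended far beyond the LTR. The longest, 2568 bp at Snora9, a small nucleolar RNA gene (chromosome 11, 6526378 to 6528945), had 16.0% of its bases on the element and reached 1641 bp upstream of it. That peak also covered the RefSeq start of Snhg15 (6528760), which lies outside the element. Snhg15 was named after its position was seen. The 2193 bp peak at the start of the zinc finger gene Zfp958 (chromosome 8, 4611169 to 4613361) had 19.6% on MMERGLN_LTR and also overlapped MURVY-LTR and RLTR13D3A1. Peaks over 1000 bp numbered 20, and peaks under 300 bp numbered 13. The shortest peaks, 191 bp in an intron of Sntg1 (a syntrophin gene) and 193 bp at an intergenic site of chromosome 6, lay wholly inside the element. A peak of about the median length, 573 bp on chromosome 1 (147062110 to 147062682), began 208 bp upstream of its element and ended 365 bp into it.

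**Figure D2:**
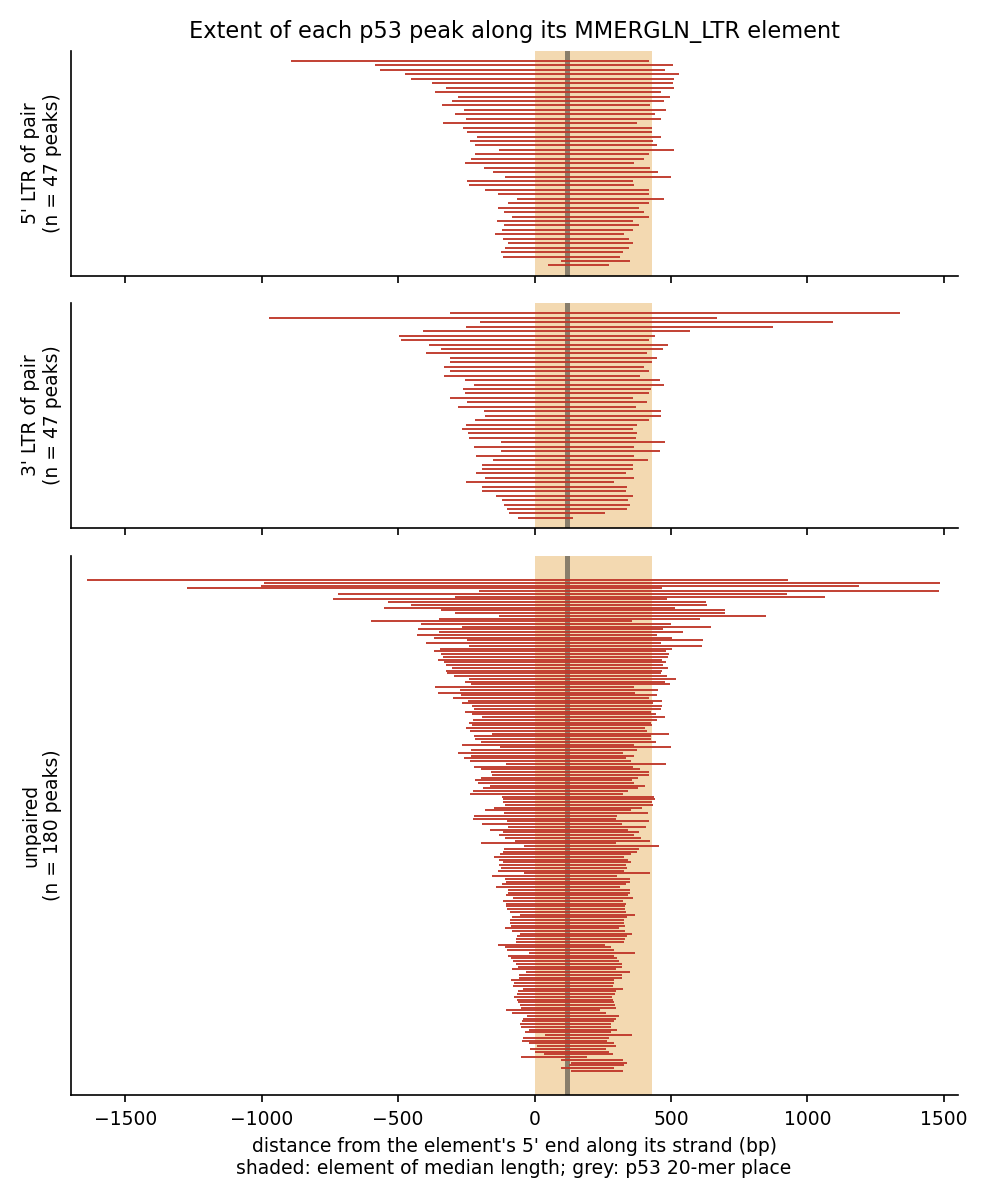
Each horizontal line is 1 p53 peak on MMERGLN_LTR, drawn from its upstream to its downstream edge in bp from the 5′ end of the element along its strand, sorted by length. Panels show 47 peaks on the 5′ LTR and 47 on the 3′ LTR of a pair and 180 unpaired peaks, with an element of median length (430 bp) shaded and the 20-mer place in grey.

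Many of the LTRs under a peak stood in pairs at the spacing of a provirus. On the same strand, with 5′ ends 6 to 10 kb apart, 47 pairs of elements under separate peaks were found, which took in 94 of the 274 peaks (34.3%, 28.7 to 40.3). The median spacing was 7985 bp (7984 to 7986), and 36 of the 47 pairs were within 30 bp of it. The smallest and largest spacings were 6633 and 9730 bp. Both elements of the pair had the same length in 36 of 47. The labels and headers do not say how reads that match several repeat copies were placed. Whether both LTRs of a pair were bound separately was therefore not tested. From the outer end of one LTR to that of the other, the median length was 8415 bp.

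The scan from 500 bp to 50 kb found 49 MMERGLN_LTR pairs on the same strand and 0 on opposite strands. The other 2 were 15076 and 16087 bp apart. For RLTR1B, a more frequent element with 417 peaks, the same scan found 28 pairs, 21 of them on the same strand, with 1 same-strand pair at 6 to 10 kb and 9 at 3 to 5 kb. RLTR23 had 3 pairs in all, and 0 at 6 to 10 kb. The share of peaks in a pair at 6 to 10 kb was thus 34.3% for MMERGLN_LTR, 0.480% (0.0581 to 1.72) for RLTR1B and 0% (0 to 3.69) for RLTR23. It was 58.3% (40.8 to 74.5) for RLTR1F_Mm, another LTR, with 36 peaks of which 21 stood in 11 such pairs at a median spacing of 8067 bp (8032 to 8071), so pairing at this distance was not limited to MMERGLN_LTR. These spacings describe copies with a peak, and the spacing of copies without one was not analysed here.

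**Figure D3:**
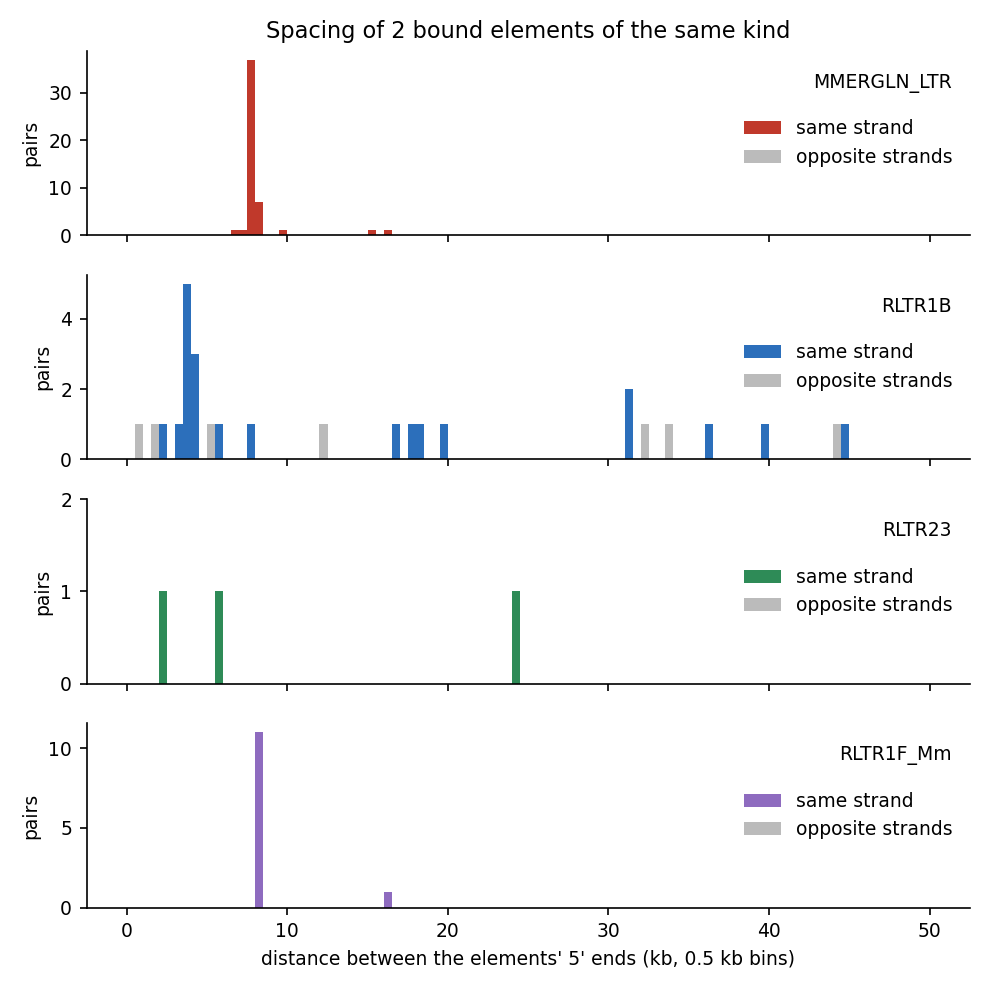
Number of pairs of bound elements of the same kind (vertical axis) by the distance between their 5′ ends in kb (horizontal axis, bins of 0.5 kb), for MMERGLN_LTR, RLTR1B, RLTR23 and RLTR1F_Mm. Coloured bars are pairs on the same strand and grey bars pairs on opposite strands, and the MMERGLN_LTR and RLTR1F_Mm pairs gather at their medians of 7985 and 8067 bp.

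Peak lengths at the ends of a pair were compared next. Peaks on the 5′ LTR had a median of 621 bp (553 to 681) and peaks on the 3′ LTR 644 bp (586 to 696). The 5′ LTR peak was the longer in 21 pairs and the 3′ LTR peak in 26, and the median difference of 5′ minus 3′ was -42 bp, with an interval of -89 to 19 bp that includes 0. Across the 47 pairs the lengths had a Spearman rho of 0.55 and, as log2 values, a Pearson r of 0.62. Both ends of a pair lie at the same locus, and the placement of reads that match both is not given, so this is a description.

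The median midpoint of the peak differed slightly between the ends. On the 5′ LTR the midpoint lay a median of 106 bp (90.5 to 119.5) into the element, and on the 3′ LTR 75 bp (63.5 to 83.5), intervals that did not overlap. These intervals ignore the pairing, and the difference in midpoint within pairs was not computed. The upstream edge was at -217 bp (-252 to -134) on the 5′ LTR, in flanking DNA, and at -243 bp (-261 to -199) on the 3′ LTR, in the provirus interior. The downstream edge was at 421 bp (402 to 447) on the 5′ LTR and 411 bp (364 to 426) on the 3′ LTR. For both edges the intervals overlapped. Internal GLN sequence, annotated MMERGLN-int, was listed for 14 of 47 peaks on the 3′ LTR and for 0 on the 5′ LTR and 0 of the 180 unpaired peaks. All 47 peaks on the 3′ LTR reached at least 61 bp upstream of the element. The annotation thus listed internal sequence for only some of the peaks that reached that side, and a missing entry does not show its absence. Between the LTR peaks of the 47 pairs there were 0 WT peaks and 0 KO peaks.

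The 180 unpaired peaks were shorter, with a median of 510 bp (469 to 569) against 636.5 bp (607 to 672) in pairs, and their interval overlapped that of the RLTR1B peaks (452 to 499). Their elements had the same median of 430 bp, and 165 of 180 reached 400 bp. At the places where a second LTR would lie 7985 bp to either side, a WT peak was found for 1 of the 180 and a KO peak for 0. Whether these copies are solitary LTRs or have a second LTR without a peak was not tested.

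**Figure D4:**
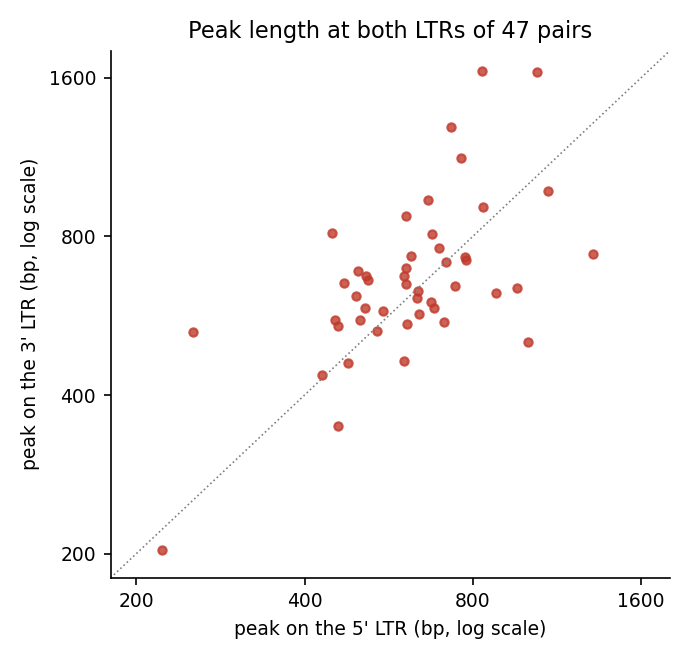
Length in bp of the p53 peak on the 5′ LTR (horizontal axis) and on the 3′ LTR (vertical axis) of 47 MMERGLN_LTR pairs, both on log scales, with the line of equality dotted. Points lie on both sides of the line, 26 above it and 21 below it.

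3 pairs had the longest summed peaks. At chromosome 8, 121832845 to 121841264, both LTRs were annotated to the transcript RP24-286J21.7, the upstream one as promoter with a peak of 1042 bp and the downstream one as 3′ UTR with a peak of 1641 bp. Peaks of 830 and 1650 bp lay on the pair at chromosome 10, 86676189 to 86684587, and peaks of 1089 and 977 bp on the pair at chromosome 13, 117165319 to 117173766, both pairs intergenic.

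A RefSeq gene lay wholly inside 17 of the 47 pairs. These were the pseudogene Cbx3-ps7 and predicted genes such as Gm43549, Gm46854 and Gm46950. In 32 pairs both peaks were intergenic, and in 5 both were in introns of the same gene: Abca13 (a lipid transporter of the ABC family), Adgrl3 (an adhesion receptor also called latrophilin 3), Immp2l (a mitochondrial inner membrane peptidase), Etl4 and Btbd3. These 5 were named after their values were seen. Their intron class is that of the deposited annotation, and the pair at Btbd3 overlapped no RefSeq gene span. In Abca13 the peaks were 638 and 629 bp long and in Adgrl3 695 and 759 bp, each given as 5′ and then 3′ LTR.

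Most MMERGLN_LTR peaks were intergenic. By the deposited annotation 198 of 274 were intergenic (72.3%, 66.6 to 77.5), 54 intronic (19.7%, 15.2 to 24.9) and 14 in promoters (5.11%, 2.82 to 8.42). A 5′ UTR was named for 3, a 3′ UTR for 5 and another exon for 0. Of the 1853 other WT-specific peaks 43.5% (41.2 to 45.8) were intergenic and 16.7% (15.1 to 18.5) in promoters, so both intervals lie apart from those of MMERGLN_LTR. RLTR1B peaks, 71.0% intergenic (66.4 to 75.3), overlapped it.

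**Figure D5:**
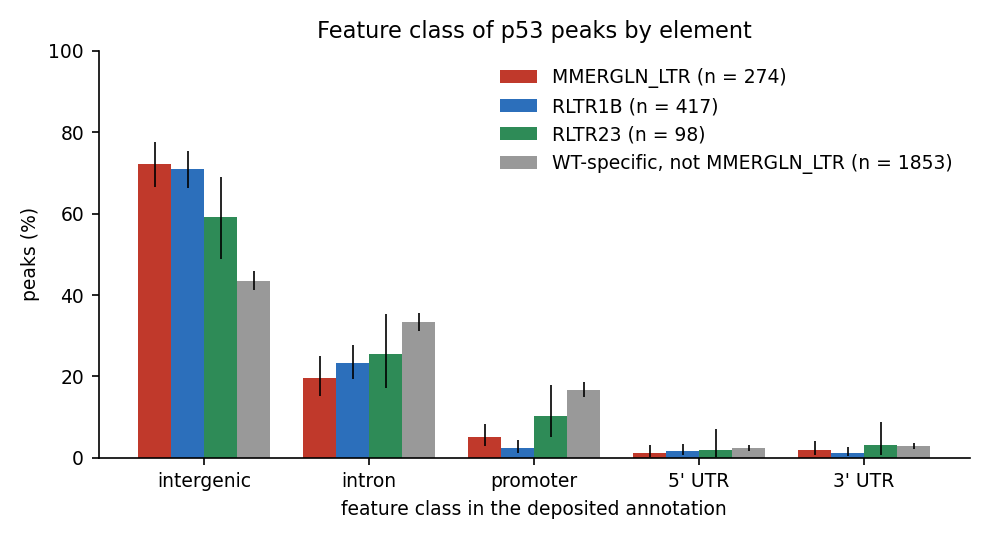
Percent of peaks (vertical axis) in each feature class of the deposited annotation (horizontal axis) for MMERGLN_LTR, RLTR1B and RLTR23 peaks and the 1853 WT-specific peaks without MMERGLN_LTR. Bars start at 0, error bars are 95% exact binomial intervals, and 72.3% of MMERGLN_LTR peaks were intergenic against 43.5% of the 1853.

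Inside introns the LTR mostly ran against the gene. The RefSeq table gave a strand for the genes of 37 of the 54 intronic peaks, and the element was antisense in 33 of them (89.2%, 74.6 to 97.0). The 5 pairs with both peaks in introns of the same gene enter this count with both LTRs, which share a strand. These peaks are not independent, so the interval overstates the precision. For RLTR1B it was antisense in 37 of 53 (69.8%, 55.7 to 81.7) and for RLTR23 in 11 of 14 (78.6%, 49.2 to 95.3), intervals that overlap that of MMERGLN_LTR. The orientation of copies without a peak was not analysed here.

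Promoter and 5′ UTR peaks, 17 in all, included several at named genes. The peak at Ulbp1, which encodes a ligand of the activating receptor NKG2D on natural killer cells, was 1292 bp long (chromosome 10, 7473790 to 7475081) and began 149 bp outside the RefSeq gene (7444873 to 7473641, minus strand). It lay on the 3′ LTR of a pair whose 5′ LTR had an intergenic peak of 732 bp, with 8007 bp between them, and this LTR ran in the direction of Ulbp1. H60b, which encodes another NKG2D ligand, had an intronic peak of 353 bp in the deposited annotation (22220642 to 22220994), 52480 bp outside the RefSeq span of that gene. H60b was named after its annotation was seen.

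At Pdcl, a phosducin-like gene, a peak of 1741 bp covered the RefSeq start. Its LTR ran against the gene, and 24.6% of the peak lay on it. The Zfp958 peak also covered a RefSeq start, with the LTR in the direction of the gene. At Ogn, which encodes the proteoglycan osteoglycin, the peak of 957 bp was 1546 bp from the start, and at H1fnt, a testis-specific linker histone gene listed as H1f7 in RefSeq, the peak of 671 bp was 628 bp from it. Rprd1a had a promoter peak of 730 bp on the 3′ LTR of a pair. The rest of the 12 longest were at Snora9, at RP24-286J21.7 and at the clone-named transcripts WI1-49P9.2 (807 bp), RP23-214L4.7 (658 bp), RP23-212C9.3 (653 bp) and RP23-281M13.2 (553 bp).

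Among gene families, Zfp958, Olfr1117-ps1 (an olfactory receptor pseudogene), Vmn1r88 (a vomeronasal receptor gene) and Snora9 had 1 peak each. Over all 2127 WT-specific peaks there were 15 at Zfp genes, 3 at Olfr, 2 at Vmn and 2 at Snora or Snord genes. Clone-named transcripts were given for 20 MMERGLN_LTR peaks, of 248 in all. Olfr1117-ps1 and Vmn1r88 were named after their annotation was seen. In all, 76 peaks carried 70 gene names. The remaining peaks among the 10 longest were intronic in Glipr2 (1643 bp) and Pcdh7, a protocadherin gene (1684 bp), or intergenic, the latter including peaks of 1356 and 1312 bp on chromosome 13.

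None of the 165 genes on 8 lists had an MMERGLN_LTR peak in the deposited annotation. The lists covered p53 targets (51 genes), the interferon response (20), nucleic acid sensors (19), repeat silencing (24), antigen presentation (13), and markers of leukocytes (14), of fibroblasts and endothelium (11) and of ovarian surface epithelium (13). Over all WT-specific peaks 30 of the 165 genes had one, 27 of them p53 targets. With 5 kb added to each side of the gene, 1 of the 163 listed genes that the RefSeq table holds had an MMERGLN_LTR peak: Bst2, the interferon-induced protein tetherin, which holds budding retroviruses at the cell surface. That peak of 987 bp (chromosome 8, 71530807 to 71531793) was annotated intergenic and was 2462 bp from the gene (71534255 to 71537472). This distance is to the nearer end of the gene span and not to its start. The nearest protein-coding start in the RefSeq tables was that of Ccdc194, 5082 bp from the peak.

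In KO cells, the background measured with the same antibody, a peak shared at least 1 bp with 1 of the 274 MMERGLN_LTR peaks (0.365%, 0.00924 to 2.02), where the share over all WT-specific peaks was 3.34%. The WT-specific list was itself made against KO cells, so nothing is read from this count. The exception was the 2475 bp intergenic peak at chromosome 1, 132264725 to 132267199, and there the KO peak did not reach the LTR. No KO peak touched any of the 274 elements. All 274 intervals were identical to a peak of the WT list.

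MMERGLN_LTR peaks were found on every chromosome that had WT-specific peaks, from 2 on Y and 7 on 18 to 23 on 1. As a share of the WT-specific peaks of a chromosome they ranged from 7.14% on chromosome 11 (9 of 126) to 18.2% on X (8 of 44). All 10 peaks on X and Y were intergenic, and 6 of them formed 3 pairs.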

How the data were processed

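CUT&RUN peaks of the p53 antibody in ID8 cells were used (2 WT and 2 KO samples, of 21 in the series). Per the submitters' processing notes, fastp, Bowtie2, MACS2 and deepTools were used with mm10; the labels and headers do not give versions, settings, pooling, the placement of reads that match several repeat copies or the rule for WT-specific peaks. Per the file headers, the deposited lists give chromosome, start and end, and the deposited annotations add a feature class with gene and the overlapping repeats. Starts were read as 0-based and are printed 1-based.

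Where several MMERGLN_LTR entries lay in a peak, the one with the largest overlap was used, and distances run along its strand from its 5′ end. Intervals are at 95%, by Clopper-Pearson for shares and from order statistics for medians; both treat peaks as independent and cover counting error only. With 1 list per genotype, no test across samples was possible. Genes, starts and sequences came from RefSeq tables of GRCm38.p6, and 32851 promoter windows (250 bases before to 50 after a start) were searched. Named genes were those of the 10 longest peaks, the 12 longest promoter or 5′ UTR peaks, peaks at KO peaks, the 3 pairs with the longest peaks, the 2 shortest peaks, a peak next to the median length and listed genes. The members, lists and rules were chosen with earlier results of these data known. Position and pairing code was tested on simulated data. Python 3.11.15, numpy 2.4.6, pandas 2.3.3, scipy 1.17.1 and matplotlib 3.10.9 were used.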

Additional observations from a re-analysis of the deposited data

How the results depend on the processing

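The count of MMERGLN_LTR peaks (236 to 274 over its alternatives), the share annotated intergenic (71.2 to 72.4%) and the 47 pairs stayed within 1.5 times or within their interval under every alternative run. The median peak length was 510 bp in unpaired and 636.5 bp in paired peaks. The median midpoint, 107.25 bp as reported, was 119.5 bp in the shorter 50% of peaks, 88.5 bp in paired peaks and 319.5 bp when measured from the 3′ end. The share at a KO peak was 0% where it had to cover 50% of the peak or touch the element. Listed genes rose from 0 to 1 with 5 kb added. A half-site was found in 1 sequenced element, and in 2 peaks when promoter windows outside the element counted. The splits by pairing and the 20-mer were chosen after seeing the data. No paired analysis was possible because each genotype has 1 peak list, and for the same reason leaving out replicates was not run. Depth is unknown and sets no stated limit.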
